A study of Mus musculus with 6 samples.

Results

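The xenobiotic-metabolizing enzymes described here are the protein-coding mouse genes of the cytochrome P450 families CYP1 to CYP4, the UDP-glucuronosyltransferases (UGT), the cytosolic and mitochondrial glutathione S-transferases (GST), the microsomal glutathione S-transferases (MGST), the sulfotransferases (SULT) and the carboxylesterases (CES). Members were chosen by gene symbol alone, with pseudogenes left out, and the families themselves were picked with earlier results of these data known. GENCODE M21 annotates 162 such genes, and 103 of them were among the 21878 genes of the deposited table. The other 59 were not analysed here.

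All 6 samples were tumors of the small intestine from mice of genotype Prkcif/fPrkczf/f;Villin-Cre, taken at 14 weeks of age. Cre was driven by the Villin promoter, which is active in intestinal epithelium, so deletion of the floxed Prkci and Prkcz, which encode atypical protein kinases C, is directed to epithelial cells. The vehicle group (replicates 1 to 3) and the PEGPH20 group (replicates 4 to 6) held 3 samples each and shared the genotype, and no wild-type sample was analysed here. PEGPH20, a pegylated recombinant human hyaluronidase that degrades the matrix polymer hyaluronan, was given at 0.0375 mg/kg from 11 weeks of age, in 2 doses a week over 3 weeks. Whether the tumors of a group came from different mice is not in the labels, so a p-value here reflects the spread among these samples, which may be technical.

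Foreign chemicals and many lipids, steroids and bile acids are cleared in steps. Cytochromes P450 oxidize them and carboxylesterases cleave their esters, and transferases then attach glucuronic acid, sulfate or glutathione, which makes the products soluble enough for export. In the small intestine these enzymes are concentrated in the absorptive enterocytes at the tips of the villi, where they form the first barrier to ingested compounds. Their genes are controlled by ligand-activated receptors such as AhR, PXR and CAR, by the oxidative stress factor NRF2, and by gut and liver factors of the HNF families.

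Sequencing from the 3′ end of transcripts gave 2075588 to 2832876 recovered reads per library. Levels are in CPM, reads of a gene scaled to a common library total, in which 1 read was worth 0.353 to 0.482 CPM and a count of 0 allows up to 1.06 to 1.45 CPM. Because the assay takes 1 tag per transcript end, CPM needs no correction for transcript length. PEGPH20 replicate 5 stood apart: its correlation with the other libraries was 0.844 to 0.907, against 0.945 to 0.979 among those others. Most medians, the calls of members and the differences of most members described are therefore given with and without it. Counts at an unadjusted p and counts of groups without overlap are given with all libraries only. The summed CPM of 11 enterocyte markers was 17115 in that library, against 5523 and 5589 in PEGPH20 replicates 4 and 6 and 3553 to 7543 in the vehicle libraries. Of these 11 markers, 10 had a log2 difference (PEGPH20 minus vehicle) above 0 and 1 below. Their median was 0.67 with all libraries and 0.13 without replicate 5. Summed fibroblast markers were 2962 to 3051 CPM in the vehicle libraries and 1608, 586 and 1397 CPM in PEGPH20 replicates 4, 5 and 6, and all 6 of those markers had a log2 difference below 0. The 4 endothelial markers were also lower, with sums of 133 to 152 CPM in vehicle and 55.4 to 93.9 CPM with PEGPH20. The part of these marker differences in the results on the enzymes was not tested. In bulk tumor RNA, fewer cells of a type and less RNA per cell cannot be told apart. Summed pan-epithelial markers were 7602 to 8705 CPM in the vehicle libraries and 7585, 4964 and 7504 CPM in PEGPH20 replicates 4, 5 and 6. Of these 6 markers, 2 had a log2 difference above 0 and 4 below. Of 4 liver markers in the table, Apoh had 6 reads over all 6 libraries, Fgb 4 and Serpina1a 1, whereas Ttr had 164 (14.3 ± 4.98 CPM in vehicle and 7.23 ± 5.36 CPM with PEGPH20; SD, n = 3 each).

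The control regions of 4 members are shown because their genes represent the patterns described further on: Cyp1b1, the one tested member whose PEGPH20 libraries all lay under the vehicle libraries, Gstm3, the tested member with the largest positive difference, and Cyp2c65 and Cyp3a11, which carry the binding core of the intestinal factor HNF4. Each line gives the 250 bases before the gene's RefSeq start, 5′ to 3′ on the gene's own strand, on GRCm38.p6. GENCODE starts can differ, and the Gstm3 and Cyp3a11 windows reach into the GENCODE spans of their genes. Capitals mark matches to 5 motifs searched on both strands: the AhR response core GCGTG, the NRF2 response core TGACNNNGC, the nuclear receptor hexamer AGGTCA, the HNF1 core GTTAAT and the HNF4 core CAAAGTCCA. The reverse of AGGTCA begins with TGAC, as the NRF2 core does. Cyp1b1 lies at chr17:79715062-79715311 (minus strand), Gstm3 at chr3:107969175-107969424 (minus strand), Cyp2c65 at chr19:39060756-39061005 (plus strand) and Cyp3a11 at chr5:145879855-145880104 (minus strand).
Cyp1b1: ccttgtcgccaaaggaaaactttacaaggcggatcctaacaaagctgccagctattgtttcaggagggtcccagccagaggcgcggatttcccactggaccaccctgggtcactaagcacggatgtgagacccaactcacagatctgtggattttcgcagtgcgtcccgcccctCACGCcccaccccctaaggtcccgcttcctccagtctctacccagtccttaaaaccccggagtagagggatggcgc
Gstm3: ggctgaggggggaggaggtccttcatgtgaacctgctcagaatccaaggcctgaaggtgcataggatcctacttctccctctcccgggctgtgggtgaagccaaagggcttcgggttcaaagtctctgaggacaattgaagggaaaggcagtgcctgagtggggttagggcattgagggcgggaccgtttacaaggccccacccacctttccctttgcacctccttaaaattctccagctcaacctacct
Cyp2c65: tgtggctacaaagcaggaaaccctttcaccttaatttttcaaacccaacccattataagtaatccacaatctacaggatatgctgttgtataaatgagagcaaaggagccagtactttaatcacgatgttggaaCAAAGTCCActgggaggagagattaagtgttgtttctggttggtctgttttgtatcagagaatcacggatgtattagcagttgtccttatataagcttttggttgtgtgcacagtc
Cyp3a11: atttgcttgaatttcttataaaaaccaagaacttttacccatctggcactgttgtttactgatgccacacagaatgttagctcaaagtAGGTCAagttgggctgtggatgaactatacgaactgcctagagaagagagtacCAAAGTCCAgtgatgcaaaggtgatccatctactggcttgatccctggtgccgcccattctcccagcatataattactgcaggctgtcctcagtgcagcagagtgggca
The Cyp1b1 window held the AhR core, read on the opposite strand as CACGC. The Gstm3 window held none of the 5 motifs. Both the Cyp2c65 and the Cyp3a11 window held the HNF4 core, and that of Cyp3a11 also held AGGTCA. RefSeq windows were found for 89 of the 103 members, 105 windows in all. Among them 19 (18.1%) held the AhR core, against 28.2% of the 32851 windows of all genes, and 6 (5.71%) held the NRF2 core, against 10.2%. AGGTCA was present in 21 windows (20.0%, against 14.0% of all genes), and GTTAAT in 11 (10.5%, against 6.43%). The HNF4 core was present in 4 windows (3.81%, against 0.384%), those of Cyp2c65, Cyp2c67, Cyp2c68 and Cyp3a11. The Cyp2c genes are close relatives, so their windows are not independent. A match is a string of letters in this window and not a measured binding site.

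Levels differed widely between members. Mean CPM over the 6 libraries exceeded 100 in 11 members, which together held 76.1% of all member CPM, lay between 10 and 100 in 33 members and was at most 10 in 59. GST genes held 32.2% of member CPM, CYP3 17.4%, SULT 12.1%, CYP4 9.29%, UGT 8.29%, MGST 8.22%, CES 6.78%, CYP2 4.53% and CYP1 1.21%. These shares pool all 6 libraries. In the vehicle libraries alone, mean summed CYP4 (203 CPM) lay under UGT (233 CPM) and MGST (290 CPM). The 2 highest members made up 94.96% of SULT CPM, 94.4% of CYP3, 91.5% of UGT, 85.3% of CYP4, 84.6% of CES, 78.3% of MGST, 71.7% of GST and 51.2% of CYP2. The cytochrome families were thus led by Cyp3a13 and Cyp4f14, and the transferases by Gsta4, Gsto1, Ugt2b34 and Sult1b1.

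**Figure D1:**
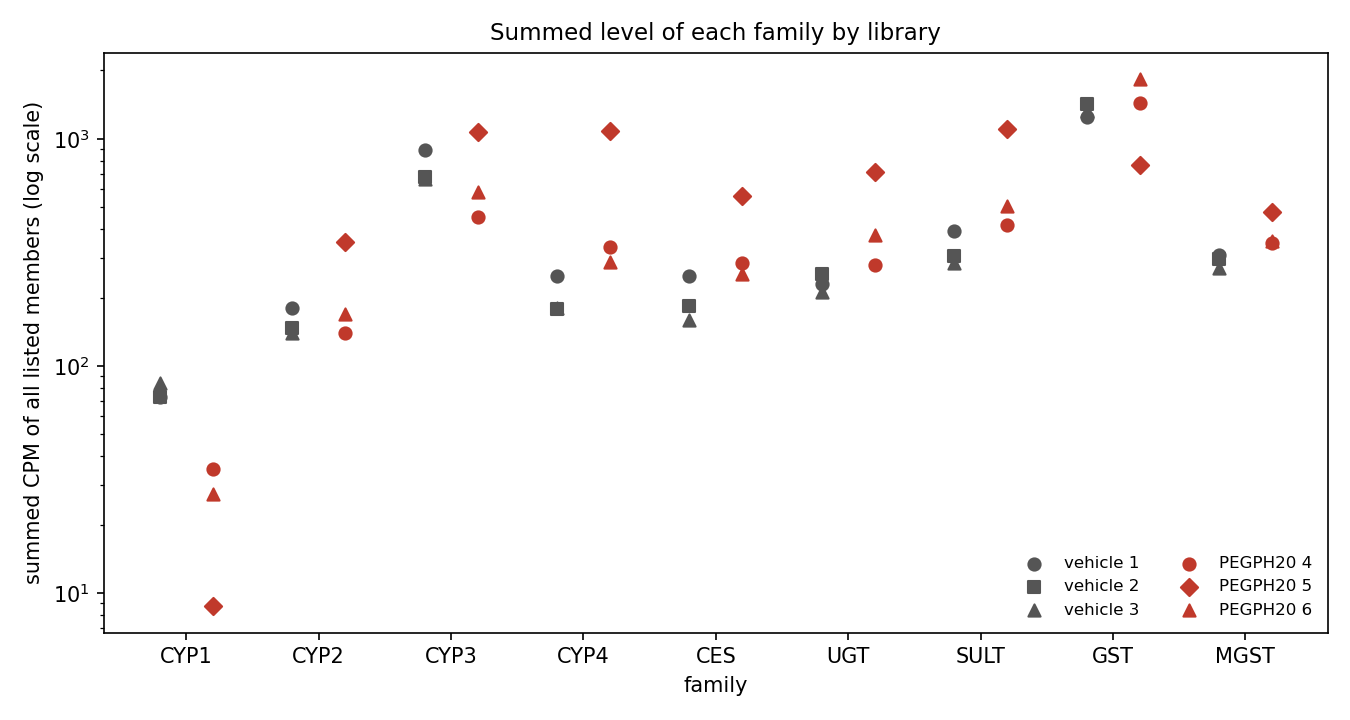
Summed CPM of each enzyme family in the 6 libraries, with vehicle and PEGPH20 replicates as separate points. PEGPH20 replicate 5 was the highest or lowest of the 6 libraries in every family. It was highest for CYP2 (353 CPM), CYP3 (1075 CPM), CYP4 (1085 CPM) and CES (558 CPM). The same held for UGT (716 CPM), SULT (1106 CPM) and MGST (477 CPM). It was lowest for CYP1 (8.75 CPM) and GST (769 CPM).

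Of the 103 members, 50 passed the filter on low counts and were tested, and 53 did not. Among the 53, 36 had at most 10 reads over the 6 libraries, and the highest had 62. More reads fell in the PEGPH20 group for 30 of them, in the vehicle group for 15, and 8 were equal, from group totals of 7307308 vehicle and 7429582 PEGPH20 reads. Of the 50 tested members, 41 exceeded the filter's level in every library, whereas 5 did so in all PEGPH20 libraries and in 1 or 2 vehicle libraries (Cyp2c68, Cyp2d26, Gstm6, Gstm7 and Ugt2a3), and 2 did so in all vehicle libraries and in 2 PEGPH20 libraries (Cyp2b10 and Gsta2). Cyp2u1 and Sult1c2 did so in 2 libraries of each group.

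With all 6 libraries, 0 of the 50 tested members passed limma's test at an adjusted p of 0.05, and 9 of the 11389 genes tested did (0.079%; 0.0263% higher and 0.0527% lower with PEGPH20). The smallest adjusted p of a member was 0.135. At an unadjusted p under 0.05 there were 17 of the 50 members, and 18.0% of all genes. Of the 17, 16 were higher with PEGPH20 (32%, against 6.52% of all genes) and 1 was lower (2%, against 11.5%). Cyp2c68 and Cyp2d26, both among the 16, exceeded the filter's level in all PEGPH20 libraries but not in all vehicle libraries. edgeR's quasi-likelihood test on recovered reads called 0 members (0.0878% of all genes), and DESeq2 called 5 (2.43%). The 2 groups did not overlap in 16 members (32%, near the 27.3% of all genes). Of these, 15 were higher with PEGPH20 (30%, against 9.71% of all genes) and 1 was lower (2%, against 17.6%). Cyp2c68 was also among these 15. The log2 difference (PEGPH20 minus vehicle, on log2(CPM + 1)) was above 0 for 35 of the 50 (70%, against 40.2% of all genes), with a median of 0.39, while the median of all genes was −0.09. Over the 41 members that exceeded the filter's level in every library, 29 were above 0 and the median was 0.36.

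Without PEGPH20 replicate 5, which left 2 PEGPH20 and 3 vehicle libraries, the same count of 35 members lay above 0 (48.1% of all genes), with a median of 0.32 against −0.01 for all genes. In that fit 7 members passed limma's test (14%, against 2.98% of all genes). Ces1f, Cyp4f14, Gstm1, Gstm3, Gsto1 and Mgst3 rose (12%, against 0.948%), and Cyp1b1 fell (2%, against 2.03%). edgeR without the same library called these 7 genes (3.7% of all genes) and no other member. PEGPH20 replicate 5 was the highest of the 6 libraries for 31 of the 50 members (62%, against 18.4% of all genes). It was the lowest for 10 members, among them all 4 Gsta genes (20%, against 45.3% of all genes).

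**Figure D2:**
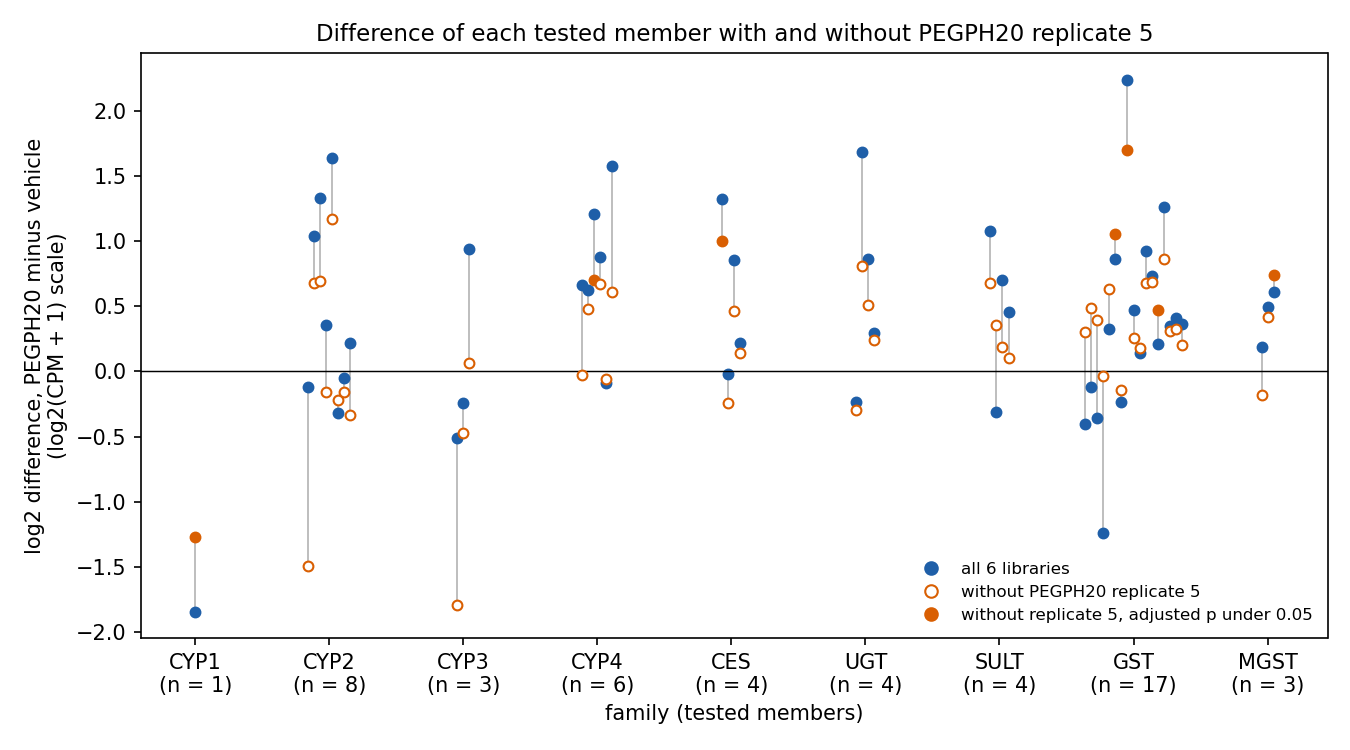
Log2 difference (PEGPH20 minus vehicle, log2(CPM + 1)) of every tested member by family, with all libraries and without PEGPH20 replicate 5. The median of the 50 members was 0.39 with all libraries and 0.32 without that replicate, and Cyp1b1 lay lowest among the members called without it (−1.27).

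Cyp1b1 was the one CYP1 gene in the table. It encodes an oxidase of polycyclic aromatic hydrocarbons and estrogens, is induced through AhR, and is known for expression in stromal cells as well as epithelium. Its levels were 72.8, 72.6 and 84.1 CPM in the vehicle libraries and 35.3, 8.75 and 27.3 CPM in PEGPH20 replicates 4, 5 and 6. Every PEGPH20 library lay under every vehicle library, and the lowest was replicate 5. The log2 difference was −1.84 ± 0.44 (SE, n = 3 and 3, limma adjusted p = 0.147). Without replicate 5 it fell by 1.27 on the log2 scale (SE 0.16, limma adjusted p = 0.00294). DESeq2 with all libraries gave an adjusted p of 0.0057. Fibroblast marker sums were ordered in the same way among the PEGPH20 libraries, with replicate 4 highest and replicate 5 lowest, and their part in the Cyp1b1 difference was not tested. The gene (ENSMUSG00000024087) spans 79701537 to 79715061 on chromosome 17 of GRCm38.

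CYP2 is the family with the most annotated genes, and 8 of its 26 genes in the table were tested. Of these, 5 had a log2 difference above 0 (median 0.29), and 3 did without replicate 5 (median −0.16), and none passed the test in either fit. Cyp2c65, an intestinal P450 that oxidizes arachidonic acid, was at 18.8, 22.6 and 18.7 CPM in vehicle and 31.1, 70.0 and 34.1 CPM with PEGPH20. Its groups did not overlap, and the log2 difference was 1.04 ± 0.30 with all libraries (limma adjusted p = 0.173) and 0.68 ± 0.18 without replicate 5 (0.0717). Cyp2d26, of the subfamily that in humans includes the drug oxidase CYP2D6, was at 18.3, 6.5 and 3.44 CPM in vehicle and 14.5, 50.4 and 23.2 CPM with PEGPH20. Here the groups overlapped, because vehicle replicate 1 exceeded PEGPH20 replicate 4, and the difference was 1.64 ± 0.60 (adjusted p = 0.224; without replicate 5, 1.17 ± 0.51 and 0.257). Cyp2j6, the highest CYP2 gene, was at 66.0, 71.5 and 74.5 CPM in vehicle and 55.1, 48.8 and 66.4 CPM with PEGPH20. Its difference of −0.32 ± 0.16 did not pass (adjusted p = 0.320; without replicate 5, −0.22 ± 0.14 and 0.441). Its groups overlapped by a narrow margin, PEGPH20 replicate 6 against vehicle replicate 1. Cyp2b10, the classical target of CAR, varied widely within the groups, from 5.35 to 22.6 CPM in vehicle and from 1.41 to 74.2 CPM with PEGPH20. Its difference was −0.12 ± 1.14 with all libraries and −1.49 ± 0.58 without replicate 5 (limma adjusted p = 0.961 and 0.203).

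The CYP3A enzymes oxidize a large share of drugs. Cyp3a13, the main CYP3A gene in these tumors, was at 774, 626 and 628 CPM in vehicle and 426, 783 and 548 CPM with PEGPH20. PEGPH20 replicates 4 and 6 lay under all vehicle libraries and replicate 5 over them, and the difference was −0.24 ± 0.22 with all libraries and −0.47 ± 0.14 without replicate 5 (limma adjusted p = 0.576 and 0.0997). Cyp3a11, the classical target of PXR, was at 87.2, 25.6 and 23.3 CPM in vehicle and 11.3, 157 and 9.10 CPM with PEGPH20. It showed the same order with a wider spread, and its difference went from −0.51 ± 1.03 to −1.79 ± 0.46 when replicate 5 was left out (adjusted p = 0.808 and 0.0683). The direction depended on the method: edgeR with all libraries gave 0.58 (adjusted p = 0.800), limma gave up to 0.20 with another library left out, and the mean CPM was 45.4 ± 36.2 in vehicle and 59.2 ± 84.8 with PEGPH20 (SD, n = 3 each). Cyp3a25 was at 27.5, 23.3 and 11.8 CPM in vehicle and at 15.9, 132 and 26.9 CPM with PEGPH20, a difference of 0.94 ± 0.71 (adjusted p = 0.494) that was 0.07 ± 0.34 without replicate 5 (0.945). Summed CYP3 was 663 to 889 CPM in vehicle and 454, 1075 and 584 CPM in PEGPH20 replicates 4, 5 and 6, so the PEGPH20 libraries lay on both sides of the vehicle range. No CYP3 difference passed the test in either fit.

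CYP4 enzymes hydroxylate fatty acids and eicosanoids at the end of the chain. Of 6 tested members, 5 had a log2 difference above 0 (median 0.77; without replicate 5, 4 of 6 and 0.55). Cyp4f14, which hydroxylates leukotriene B4, was at 134, 111 and 120.0 CPM in vehicle and 225, 563 and 175 CPM with PEGPH20. Each PEGPH20 library exceeded each vehicle library. The difference was 1.204 ± 0.39 with all libraries (limma adjusted p = 0.191), and the gene rose by 0.70 ± 0.14 without replicate 5 (adjusted p = 0.0278). Cyp4f14 (ENSMUSG00000024292) spans 32905070 to 32917342 on chromosome 17, in a cluster of Cyp4f genes between 32452723 and 32947402. The 3 tested genes of the cluster had differences of 0.62 to 1.204, and of 0.48 to 0.70 without replicate 5. One of them, Cyp4f16, was at 15.9, 14.1 and 12.6 CPM in vehicle and at 22.6, 35.8 and 23.7 CPM with PEGPH20, without overlap (difference 0.87 ± 0.23, adjusted p = 0.157; without replicate 5, 0.67 ± 0.20 and 0.105). Cyp4v3, the mouse counterpart of the human fatty acid hydroxylase CYP4V2, was at 66.0, 29.4 and 23.7 CPM in vehicle and 51.9, 416 and 59.2 CPM with PEGPH20, so that replicate 5 alone lay above vehicle replicate 1. Its difference was 1.57 ± 0.77 with all libraries and 0.61 ± 0.34 without replicate 5 (adjusted p = 0.321 and 0.382).

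Among the carboxylesterases, which hydrolyze ester drugs and acylglycerols, 3 of 4 tested members had a log2 difference above 0 (median 0.53; without replicate 5, 3 of 4 and 0.30). Ces1f was at 18.3, 15.7 and 16.4 CPM in vehicle and 36.4, 68.8 and 32.8 CPM with PEGPH20. The groups were clearly apart, and the vehicle libraries differed by under 3 CPM. Its difference was 1.32 ± 0.28 with all libraries (limma adjusted p = 0.135), and it rose by 1.00 ± 0.18 without replicate 5 (adjusted p = 0.0180). DESeq2 with all libraries gave an adjusted p of 0.0089. Ces1f (ENSMUSG00000031725) spans 93256236 to 93279747 on chromosome 8. Ces2e, the highest carboxylesterase, was at 192, 127 and 108 CPM in vehicle and 202, 430.1 and 179 CPM with PEGPH20. Vehicle replicate 1 exceeded PEGPH20 replicate 6, and the difference of 0.85 ± 0.35 did not pass (adjusted p = 0.264; without replicate 5, 0.46 ± 0.21 and 0.265).

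**Figure D3:**
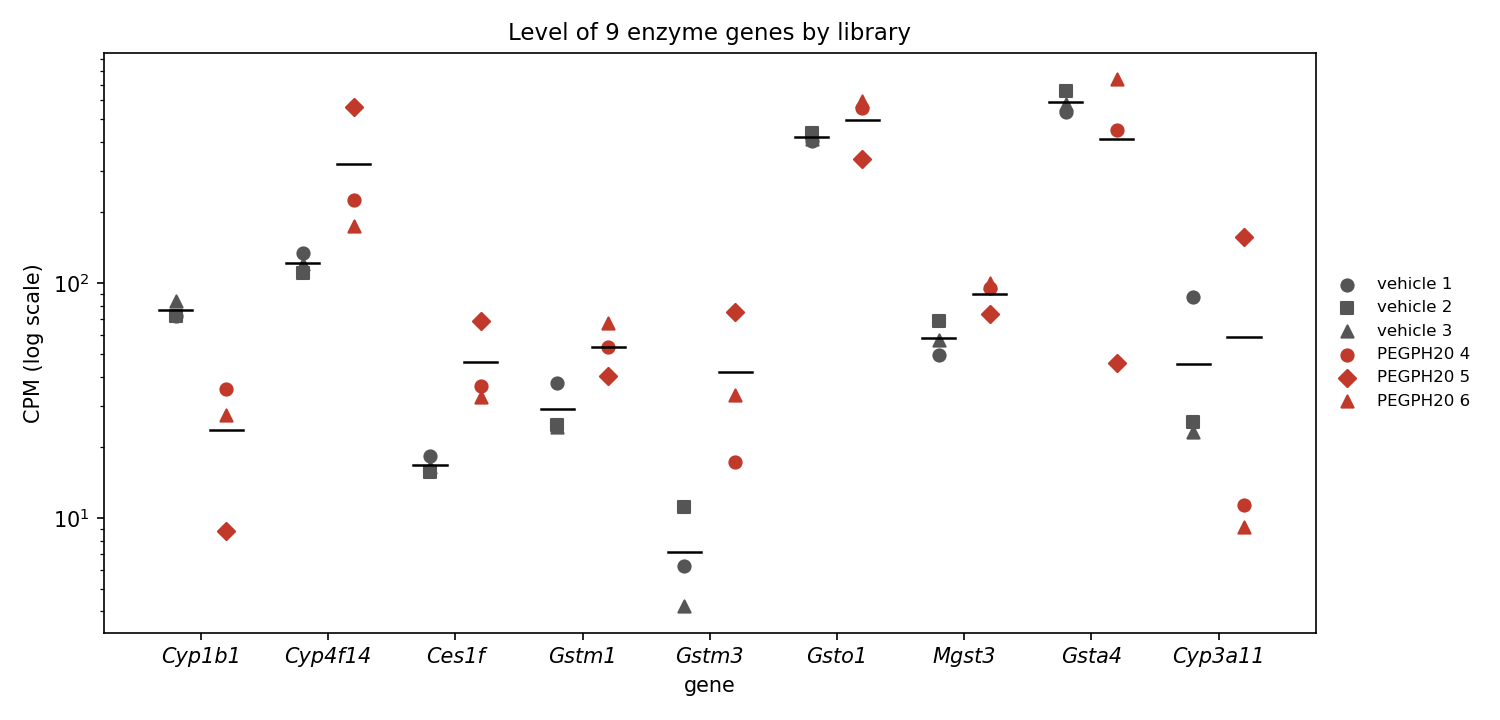
CPM of selected members in each of the 6 libraries on a log axis, with vehicle and PEGPH20 replicates as separate points. Cyp1b1 was lower in every PEGPH20 library (8.75 to 35.3 CPM) than in every vehicle library (72.6 to 84.1 CPM), and Ces1f, Cyp4f14, Gstm1 and Gstm3 were higher in every PEGPH20 library.

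Glucuronidation and sulfation are the conjugation reactions of phenols, steroids and bile acids. Ugt2b34, the highest glucuronosyltransferase, was at 191, 218 and 181 CPM in vehicle and 242, 579.7 and 323 CPM with PEGPH20. All PEGPH20 libraries exceeded all vehicle libraries (difference 0.86 ± 0.29, limma adjusted p = 0.202; without replicate 5, 0.51 ± 0.14 and 0.0846). Ugt2a3 was at 13.01, 9.94 and 3.82 CPM in vehicle and at 8.82, 95.4 and 24.6 CPM with PEGPH20, and its groups overlapped (difference 1.68 ± 0.79, adjusted p = 0.307; without replicate 5, 0.81 ± 0.49 and 0.421). Sult1b1, which sulfates phenols and thyroid hormones, was at 251, 178 and 169.7 CPM in vehicle and 269, 728 and 367 CPM with PEGPH20. These groups were adjacent and did not overlap (difference 1.08 ± 0.35, adjusted p = 0.190; without replicate 5, 0.68 ± 0.18 and 0.0791). Sult1d1, which sulfates catecholamines, was at 115, 105 and 92.5 CPM in vehicle and at 118, 345 and 119.7 CPM with PEGPH20. Replicates 4 and 6 lay just above the highest vehicle library, and the difference shrank from 0.70 ± 0.39 to 0.19 ± 0.13 without replicate 5. These 4 genes and Ugt2b35 are neighbors on chromosome 5, in a cluster from 86889767 to 87591594. All 5 tested genes there had positive differences, of 0.29 to 1.68 with all libraries and 0.19 to 0.81 without replicate 5, and none passed the test in either fit. Ugt2a3, which had the largest difference, exceeded the filter's level in all PEGPH20 libraries but not in all vehicle libraries. The UGT1 genes share their last exons, so that Ugt1a1, Ugt1a5 and Ugt1a6a had the same 3′ sequence over 100% of 75-base words, and their tags cannot be assigned to a single gene. Ugt1a7c, the tested UGT1 gene, had 652 words pooled over its transcripts, and 326 of them (50%) were shared with the other UGT1 genes. Tags from the shared words cannot be assigned to a single UGT1 gene either. The level given to Ugt1a7c was 9.17 to 14.5 CPM in vehicle and 8.82 to 10.4 CPM with PEGPH20. The difference was −0.23 with all libraries and −0.30 without replicate 5.

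The cytosolic and mitochondrial glutathione transferases gave the most tested members, 17 of 21 in the table. The log2 difference was above 0 for 12 of the 17 (median 0.35), and for 15 of the 17 without replicate 5 (median 0.39). The alpha and mu classes, which share substrates such as reactive epoxides and lipid aldehydes, differed in their pattern over the libraries. Summed Gstm was 93.5, 74.6 and 61.5 CPM in vehicle and 115, 171 and 151 CPM with PEGPH20. Summed Gsta was 631, 806 and 744 CPM in vehicle and 612, 81.3 and 916 CPM with PEGPH20. Thus Gstm was higher in each PEGPH20 library, whereas Gsta was far lower in PEGPH20 replicate 5 alone and the other PEGPH20 libraries lay to either side of the vehicle range.

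Gstm3 had the largest positive difference of the 50 tested members. It was at 6.26, 11.1 and 4.20 CPM in vehicle and 17.3, 75.4 and 33.2 CPM with PEGPH20. The groups did not overlap, and the PEGPH20 libraries differed among themselves more than the vehicle libraries did. Its difference was 2.24 ± 0.53 with all libraries (limma adjusted p = 0.147), and it rose by 1.70 ± 0.38 without replicate 5 (adjusted p = 0.0446). Gstm1 was at 37.6, 24.9 and 24.5 CPM in vehicle and 53.7, 40.01 and 67.4 CPM with PEGPH20. It was highest in PEGPH20 replicate 6, and its groups did not overlap. Its difference was 0.86 ± 0.25 with all libraries (adjusted p = 0.172), and it rose by 1.06 ± 0.21 without replicate 5 (adjusted p = 0.0280). DESeq2 with all libraries gave adjusted p-values of 0.00174 for Gstm3 and 0.049 for Gstm1. Of the 75-base words in the last 400 bases of Gstm1, pooled over its transcripts, 18.2% were shared with Gstm3 or related pseudogenes. Of the 326 words in the last 400 bases of Gstm3, 0 were shared with another gene. The share of tags affected was not measured. The 7 Gstm genes lie together on chromosome 3 from 107895821 to 108044894, Gstm3 (ENSMUSG00000004038) at 107963696 to 107969283 and Gstm1 (ENSMUSG00000058135) at 108012255 to 108017973. Of the 7, 6 had positive differences in the fit with all libraries (−0.23 to 2.24; without replicate 5, −0.14 to 1.70). Gstm6 and Gstm7, both among these 6, exceeded the filter's level in all PEGPH20 libraries but not in all vehicle libraries.

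Gsta4, which conjugates the lipid peroxidation product hydroxynonenal, was at 533, 660.3 and 582 CPM in vehicle and 450.1, 45.8 and 737 CPM with PEGPH20. Replicate 5 lay far under every other library, and the other libraries of the groups overlapped. The difference was −1.24 ± 0.89 with all libraries and −0.03 ± 0.18 without replicate 5 (limma adjusted p = 0.470 and 0.950). Gsta1, Gsta2 and Gsta3 were also lowest in replicate 5, at 16.3, 1.67 and 17.5 CPM against at least 40.5, 4.34 and 52.5 CPM in the other libraries. Most 3′ words of Gsta1 (78.5%) recur in Gsta2 or the predicted gene Gm3776, so these counts are uncertain between copies. Gsto1, of the omega class that reduces dehydroascorbate, was at 405, 435 and 412 CPM in vehicle and 559, 336 and 596 CPM with PEGPH20. Replicate 5 lay under all vehicle libraries and the other 2 over them. Its difference was 0.21 ± 0.22 with all libraries (adjusted p = 0.622), and without replicate 5 it rose by 0.47 ± 0.10 (adjusted p = 0.0337). In the theta class the 3 tested genes lie together on chromosome 10. All 3 had higher levels in each PEGPH20 library than in any vehicle library (9.71% of all genes did), and none passed the test. Their differences were 0.35 to 1.26 with all libraries and 0.31 to 0.86 without replicate 5.

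**Figure D4:**
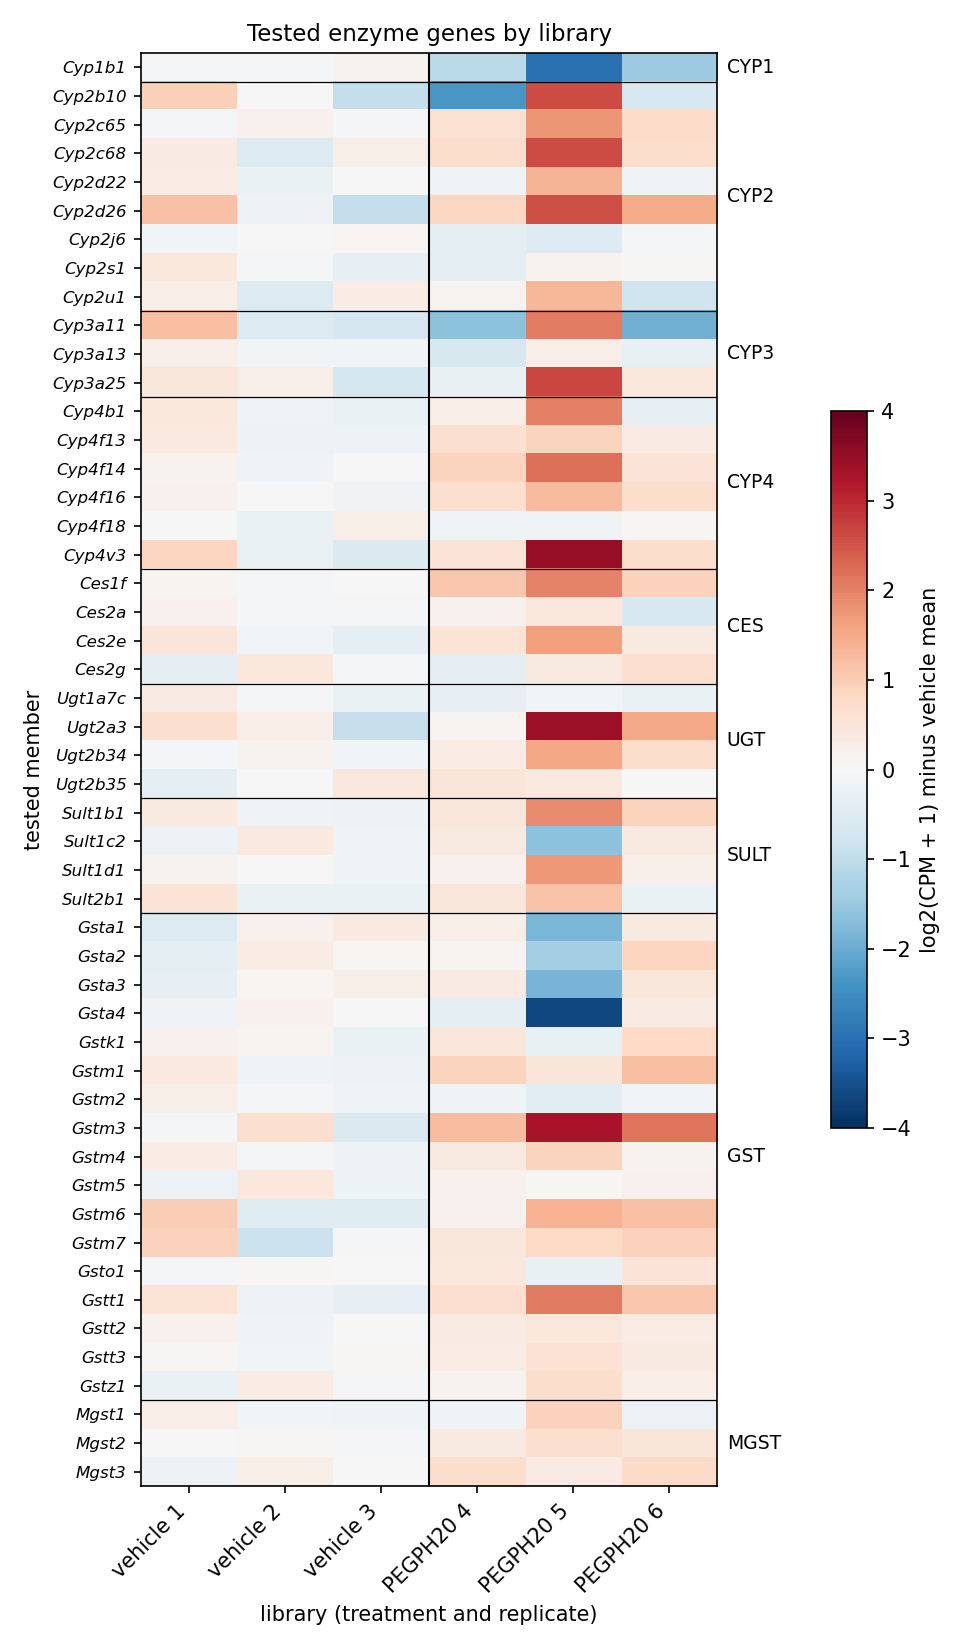
Level of every tested member in each of the 6 libraries, as log2(CPM + 1) relative to the mean of the vehicle libraries, grouped by family. PEGPH20 replicate 5 was the highest library in 31 of the 50 members and the lowest in 10, including all 4 Gsta genes.

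The microsomal glutathione transferases are membrane proteins that conjugate and reduce lipid hydroperoxides, and Mgst2 can also make leukotriene C4. Mgst2 was at 108, 112 and 104 CPM in vehicle and 139, 169.6 and 149.7 CPM with PEGPH20. Mgst3 was at 49.6, 69.2 and 57.0 CPM in vehicle and 95.3, 73.8 and 99.7 CPM with PEGPH20. Neither gene's groups overlapped, and the PEGPH20 libraries of Mgst2 spanned a narrow range that included replicate 5. For Mgst2 the difference was 0.50 ± 0.13 (limma adjusted p = 0.157; without replicate 5, 0.42 ± 0.11 and 0.0743). For Mgst3 it was 0.61 ± 0.18 (adjusted p = 0.178), and without replicate 5 the gene rose by 0.74 ± 0.15 (adjusted p = 0.0339). Mgst1 was at 148, 114 and 109 CPM in vehicle and 112, 234 and 104 CPM with PEGPH20, and its groups overlapped. Its difference was 0.19 ± 0.31 with all libraries and −0.18 ± 0.15 without replicate 5 (adjusted p = 0.763 and 0.551).

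The genes that control and supply these enzymes were described from lists chosen with earlier results of these data known. None of their members passed limma's test with all libraries (0.079% of all genes did). Of 16 tested regulators, 10 had a log2 difference above 0 (median 0.14, and 0.17 without replicate 5). The vitamin D receptor Vdr went from 40.9 ± 9.63 CPM to 112 ± 64.1 CPM (SD, n = 3 each; difference 1.31, adjusted p = 0.173; without replicate 5, 0.88 and 0.0594). The gut transcription factor Gata4 went from 19.5 ± 8.32 CPM to 42.9 ± 10.9 CPM (1.16, adjusted p = 0.182; without replicate 5, 1.03 and 0.147). Ahr, the receptor for which Cyp1b1 is a target, was at 23.6 ± 2.34 CPM in vehicle and 21.97 ± 5.89 CPM with PEGPH20, and Nr1i2, which encodes PXR, was at 32.2 ± 7.27 and 37.9 ± 3.75 CPM. These last values differed by less than the larger SD of their groups.

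Of 17 tested genes that supply cofactors, 9 had a log2 difference above 0 (median 0.06, and 0.18 without replicate 5). Ugdh, which makes the UDP-glucuronic acid used by the UGT enzymes and in hyaluronan synthesis, was at 120.2 ± 10.9 CPM in vehicle and 180.5 ± 15.95 CPM with PEGPH20 (SD, n = 3 each; difference 0.58, limma adjusted p = 0.146). Without replicate 5 it rose by 0.61 (adjusted p = 0.0309), and only this gene of the 17 passed in that fit, as did 2.98% of all genes. Cyb5b, an electron donor of the cytochrome b5 type, was at 324 ± 10.03 and 437 ± 37.98 CPM (0.43, adjusted p = 0.172; without replicate 5, 0.37 and 0.0833). Of 25 other biotransformation enzymes, 18 had a log2 difference above 0 (median 0.16, and 0.12 without replicate 5). The smallest p-values of that list belonged to Bche, the butyrylcholinesterase (0.77, adjusted p = 0.235; without replicate 5, 0.60 and 0.274), and Ephx2, the soluble epoxide hydrolase. Ephx2 was at 40.8 ± 6.22 and 99.7 ± 67.2 CPM (1.07, adjusted p = 0.243; without replicate 5, 0.56 and 0.171).

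Of 17 tested transporters, 11 had a log2 difference above 0, and their median difference of 0.41 was −0.0044 without replicate 5. The efflux pump Abcg2 was at 62.4 ± 3.38 CPM in vehicle and 116.5 ± 47.3 CPM with PEGPH20 (0.80, limma adjusted p = 0.221; without replicate 5, 0.52 and 0.213). The efflux pump Abcb1a was at 238 ± 28.0 and 185 ± 3.69 CPM (−0.35, adjusted p = 0.223; without replicate 5, −0.34 and 0.163). The 3 tested AhR targets outside the enzyme families had positive differences (median 0.28, and 0.55 without replicate 5). Of these, Lrat had a difference of 1.38 (adjusted p = 0.173; without replicate 5, 1.05 and 0.163). Nqo1, which is also in the NRF2 list, had one of 0.28 (adjusted p = 0.585; without replicate 5, 0.55 and 0.157). Tiparp had one of 0.16 (adjusted p = 0.708; without replicate 5, 0.10 and 0.847). Of 18 tested NRF2 targets, 8 had a log2 difference above 0 (median −0.13, and 0.17 without replicate 5). Ftl1, which encodes the ferritin light chain, rose by 0.73 without replicate 5 (adjusted p = 0.0312; with all libraries, 0.54 and 0.231), and Hmox1, the heme oxygenase, was at 27.2 ± 3.74 and 11.2 ± 7.92 CPM with all libraries (−1.49, adjusted p = 0.219; without replicate 5, −0.82 and 0.0895).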

How the data were processed

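Small intestine tumors were profiled with the QuantSeq forward 3′ kit, from 200.0 ng of total RNA, with single-end reads of 75 nt and optional molecular identifiers, per the labels' protocols. The submitters' processing notes name GRCm38 as the build. Which aligner and counter were used, and whether the identifiers were, is not stated in the sources used here. Per the column sums, the authors deposited CPM, a signal scaled so that gene values in a library add up to 1000000. A row holding that total was left out. Dividing by the value of 1 read gave whole numbers for 100% of values (tolerance 1e-06 of a read). These recovered reads served for the filter and the count tests. Intervals on counting were not used, and the floor for a count of 0 (3 reads) covers counting error only.

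Gene identifiers were matched to GENCODE M21 (21786 matched, 92 not). Genes were kept by filterByExpr (minimum count 10), leaving 11389, and log2(CPM + 1) was analysed by limma 3.58.1 (R 4.3.3, variance trend on), with Benjamini-Hochberg adjustment over all of them and a threshold of 0.05. A difference on this scale understates the change of low genes. The fit was also run on simulated counts, with the same dispersion for every gene and no outlying library. That run cannot show how the fit behaves with a library such as PEGPH20 replicate 5. Alternatives were edgeR 4.0.16, DESeq2 1.42.0, limma-voom, other scalings, pseudocounts and filters, and each library left out in turn.

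The enzyme families, the gene lists and the check without PEGPH20 replicate 5 were chosen with earlier results of these data known. Named members are, in each family, the 2 with the highest mean CPM and the 2 with the smallest p. Of each related list, the 2 genes with the smallest p were named. Ahr, Nr1i2, Ugt1a7c, Cyp2b10 and the Gsta and Gstm genes outside that rule were chosen after their values were seen. Shared 3′ sequence was counted as 75-base words in the last 400 bases of each gene's transcripts. Promoter windows came from RefSeq.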

Additional observations from a re-analysis of the deposited data

How the results depend on the processing

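No paired analysis was possible because the groups share no replicate number. The 9 genes past the threshold became 277 with DESeq2, 18 with limma-voom, 29 with no filter and 421 with edgeR without PEGPH20 replicate 5 (an alternative chosen after seeing the data), and ran from 1 to 339 as each library was left out. The 0 members past it became 5 with DESeq2 (Ces1f, Cyp1b1, Cyp4f14, Gstm1 and Gstm3), 7 with edgeR without replicate 5, and 0 to 7 as each library was left out, with 7 only without replicate 5. The median of all members was 0.68 with DESeq2. For CES it was 0.17 with no filter. For CYP2 it was 1.03 with DESeq2, 0.99 with edgeR and −0.16 with edgeR without replicate 5, and −0.16 to 0.80 as each library was left out. For CYP3 it was 0.61 with DESeq2 and 0.58 with edgeR, and −0.47 to 0.20 as each library was left out. For SULT it was 0.88 with DESeq2, 0.86 with edgeR and 0.30 with edgeR without replicate 5, and 0.27 to 0.88 as each library was left out. Among named members, Cyp3a11 was 0.58 with edgeR and −1.79 to 0.20 as each library was left out, Mgst1 was −0.18 with edgeR without replicate 5 and −0.18 to 0.40 as each library was left out, and Gsta4 was 0.031 with edgeR without replicate 5. The cause of these changes was not tested. Of the alternative values of named members, 340 kept their direction and side of the threshold, 19 went past it and 7 changed direction (4 of Cyp3a11, 2 of Mgst1 and 1 of Gsta4). The medians of the other families kept their sign in every alternative tried. At this depth, with 3 libraries per group, the 53 members under the filter could not be compared.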
